A study of Mus musculus with 32 samples.

Results

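The 43 genes described here encode the proteins that select and license DNA replication origins, unwind DNA at the fork and copy it, together with 5 enzymes of deoxynucleotide (dNTP) supply. They were listed by name, in a choice made with earlier results of these data known, and are 43 of the 23517 genes in the count table. All 43 were listed and had at least 1 unique molecular identifier (UMI, the tag that marks 1 captured mRNA molecule) in every sample. Messenger RNA was counted in Lgr5-EGFP + cells sorted from mouse colonoids, which are epithelial organoids grown from crypts of the proximal colon. The mice carried Lgr5-EGFP-IRES-CreERT2, so EGFP and the CreERT2 recombinase are made from the Lgr5 locus and mark stem and progenitor cells, and all groups shared this allele and the L-WRN culture medium. Colonoids of 8 mice were left untreated (UT) or were given 250 nM bethanechol (Bch), a muscarinic receptor agonist, in medium renewed each day for 4 days. The labels number the mice BR1 to BR4 and BR7 to BR10, call BR1 to BR4 male, give no sex for BR7 to BR10 and give no age beyond matching. The deposited study design counts 4 females and 4 males. The 2 sets also differ in the source that the labels name, colonic organoids for BR7 to BR10 and sorted cells for BR1 to BR4, and in the RNA kit, so sex, source and kit cannot be told apart between them. The question was whether the mRNA levels of the replication machinery differed between Bch-treated and untreated cells of the same mouse, in each set and in all 8 mice.

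Before S phase, the origin recognition complex (ORC) binds origins and, with Cdc6 and Cdt1, loads the ring-shaped MCM2-7 helicase onto DNA, a step that geminin blocks once S phase has begun. Cdc45 and the GINS complex then activate the helicase, DNA polymerase alpha-primase lays down primers, and polymerases delta and epsilon extend them on the PCNA clamp while RPA coats the exposed single strand. Many of these genes are transcribed under E2F factors at the G1/S transition, and in the intestinal crypt they are used as marks of cycling stem and progenitor cells.

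The technical replicates TR1 and TR2 of a mouse and treatment differed by less than the sampling noise of their counts, with a mean chi-square per gene of 0.735 to 0.877 over all genes with 20 to 99 UMIs, where independent counts would give 1. Over the members alone it was 0.595 to 1.30, and above 1 in 7 of 16 samples. The pairs were therefore summed and counted as 1 sample, which left 16 samples of 557512 (BR3 untreated) to 4050342 UMIs (BR8 with Bch). Taking 3 UMIs in TR1 as the limit that a count of 0 allows, the floor was 1.55 to 11.2 CPM, a scale that divides UMIs by the library total, and BR3 untreated had the highest. This covers counting error only. Lgr5 was at 12.4 to 38.6 CPM in the 16 samples, and the 5 epithelial markers summed to 4624 to 6001 CPM. The immune markers summed to at most 11.5 CPM over the 4 genes analysed, with the B cell marker Cd79a at 0 in all but the treated samples of BR1 to BR4 and the leukocyte marker Ptprc at 0 in BR7 to BR10. Of 6 fibroblast markers, Col1a1 and Vim were analysed, at a sum of at most 8.37 CPM, and Cd3e, Pdgfra, Dcn, Col1a2 and Col3a1 were not analysed here. Xist was at 43.8 to 161 CPM in BR7 to BR10 and at 11.9 to 24.2 CPM in BR1 to BR4, and 4 Y-linked genes summed to 4.46 to 12.6 and 49.7 to 89.0 CPM, so neither range overlapped between the sets. Xist and the Y-linked genes were still both counted in every sample of both sets, and the source of the lower levels was not tested. In bulk RNA of sorted cells, fewer cycling cells and less of these mRNAs per cycling cell cannot be told apart. Levels are CPM of 3′-end UMIs after TMM scaling and are not divided by length, so they are compared between samples for a gene and not between genes.

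The promoters were read first, as a feature that the choice of genes did not use. RefSeq promoter windows, from 250 bases before to 50 bases after the start site on GRCm38.p6, were found for 35 of the 43 genes, and Mcm4, Gmnn, Gins1, Gins2, Gins4, Prim2, Pole and Rfc2 are named only. The E2F letters TTTCCCGC, TTTGGCGC, TTTCGCGC or TTTGCCGC, searched on both strands with overlapping matches joined into 1 run, were in 13 of 35 first windows (37.1%). Of the first windows of all genes in the RefSeq promoter table, 626 of 27025 held them (2.32%). More than 1 run was found in 4 of 35 windows (11.4%), those of Mcm3, Mcm6, Mcm7 and Rfc3, against 0.093% of all genes. The CCAAT letters, bound by NF-Y, were in 22 of 35 windows (62.9%) against 37.9% of all, and both kinds of letters were in 22.9% against 1.01%. The CHR letters TTTGAA or TTCGAA, known from mitotic genes, were in 6 of 35 windows (17.1%) against 19.4% of all. These are matches of letters, not measured binding.

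The 250 bases before the start site are printed for the 3 genes that had E2F letters there outside every annotated exon, Mcm5, Mcm6 and Pola1, and for Mcm2 and Fen1, which had the lowest p-values among the members lower with Bch in BR1 to BR4 and had none. Capitals mark the E2F letters, and each is written 5′ to 3′ in the direction of its gene. On GRCm38.p6 they are chr8:75109259-75109508 (plus strand), chr1:128359706-128359955 (minus), chrX:93632156-93632405 (minus), chr6:88898781-88899030 (minus) and chr19:10204394-10204643 (minus). The stretch of Fen1 comes from its first window, and GENCODE M21 places the 5′ end of the gene at 10204169. Another window of Fen1, chr19:10203872-10204171, also held no E2F letters.
Mcm5: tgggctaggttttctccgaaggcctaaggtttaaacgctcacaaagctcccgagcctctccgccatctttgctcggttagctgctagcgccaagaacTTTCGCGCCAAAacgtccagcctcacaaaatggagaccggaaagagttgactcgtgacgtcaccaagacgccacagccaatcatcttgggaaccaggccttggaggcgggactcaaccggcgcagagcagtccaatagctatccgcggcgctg
Mcm6: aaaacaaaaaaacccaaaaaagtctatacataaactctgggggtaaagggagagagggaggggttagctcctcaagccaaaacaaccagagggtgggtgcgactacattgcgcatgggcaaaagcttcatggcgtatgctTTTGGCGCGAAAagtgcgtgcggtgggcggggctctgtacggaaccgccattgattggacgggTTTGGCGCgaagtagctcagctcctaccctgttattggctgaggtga
Pola1: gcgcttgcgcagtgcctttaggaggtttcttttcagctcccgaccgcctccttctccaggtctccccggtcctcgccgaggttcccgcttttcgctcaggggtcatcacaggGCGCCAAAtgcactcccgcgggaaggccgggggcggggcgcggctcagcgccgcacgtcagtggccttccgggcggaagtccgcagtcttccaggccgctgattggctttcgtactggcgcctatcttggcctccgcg
Mcm2: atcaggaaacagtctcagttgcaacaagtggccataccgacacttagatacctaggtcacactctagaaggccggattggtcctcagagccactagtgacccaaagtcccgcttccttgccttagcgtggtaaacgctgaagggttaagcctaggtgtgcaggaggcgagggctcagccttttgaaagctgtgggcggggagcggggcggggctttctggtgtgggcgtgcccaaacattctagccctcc
Fen1: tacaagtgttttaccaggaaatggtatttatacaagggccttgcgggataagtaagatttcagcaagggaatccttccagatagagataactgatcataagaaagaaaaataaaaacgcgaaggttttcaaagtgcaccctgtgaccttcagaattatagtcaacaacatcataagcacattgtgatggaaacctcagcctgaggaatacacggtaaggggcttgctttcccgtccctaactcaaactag
In Mcm6 the runs lay at −110 to −99 and −47 to −40 from the start site, in Mcm5 at −153 to −142 and in Pola1 at −138 to −131. So subunits of the same helicase ring differed in these letters.

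None of the 43 genes passed the threshold in any comparison of Bch with untreated cells. In BR7 to BR10, 0 of 43 members had an adjusted p of at most 0.05 in edgeR's quasi-likelihood test with the mouse as a block, where 0.0% of the 9515 genes tested did. Pola1, lower, was the member with an unadjusted p under 0.05, and of all genes 1.29% were lower and 2.49% higher at that p. In BR1 to BR4, 0 of 43 members passed, where 0.021% of 9509 genes did, and Fen1 and Mcm2 (lower) and Orc1 (higher) had an unadjusted p under 0.05, against 3.26% lower and 4.45% higher of all genes. The number of members at that p was 0 without BR7 or without BR8 and 6 without BR10 in the first of these sets, and 1 without BR2 in the second. DESeq2's Wald test called 0 of 43 members in BR7 to BR10, with 0 at an unadjusted p under 0.05. In the other set it gave an adjusted p for only 5 of the 43 members, so 38 were not tested against the threshold by DESeq2, and 1 member had an unadjusted p under 0.05. Over all 8 mice the count was again 0 of 43, where 0.0% of 9366 genes passed, and Fen1 and Rfc2, both lower, had an unadjusted p under 0.05 in edgeR, as did 2 members in DESeq2, beside 2.22% lower and 3.25% higher of all genes.

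The 95% intervals give the range of change that remained possible for each member. All 43 in BR7 to BR10 lay within 1 of 0 on the log2 scale, and 20 lay within 0.5. For BR1 to BR4, 39 lay within 1 and 24 within 0.5. With all 8 mice, 43 lay within 1 and 35 within 0.5, so a 2-fold difference was outside the interval of every member. The plot of fold changes shows these intervals for each gene.

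**Figure D1:**
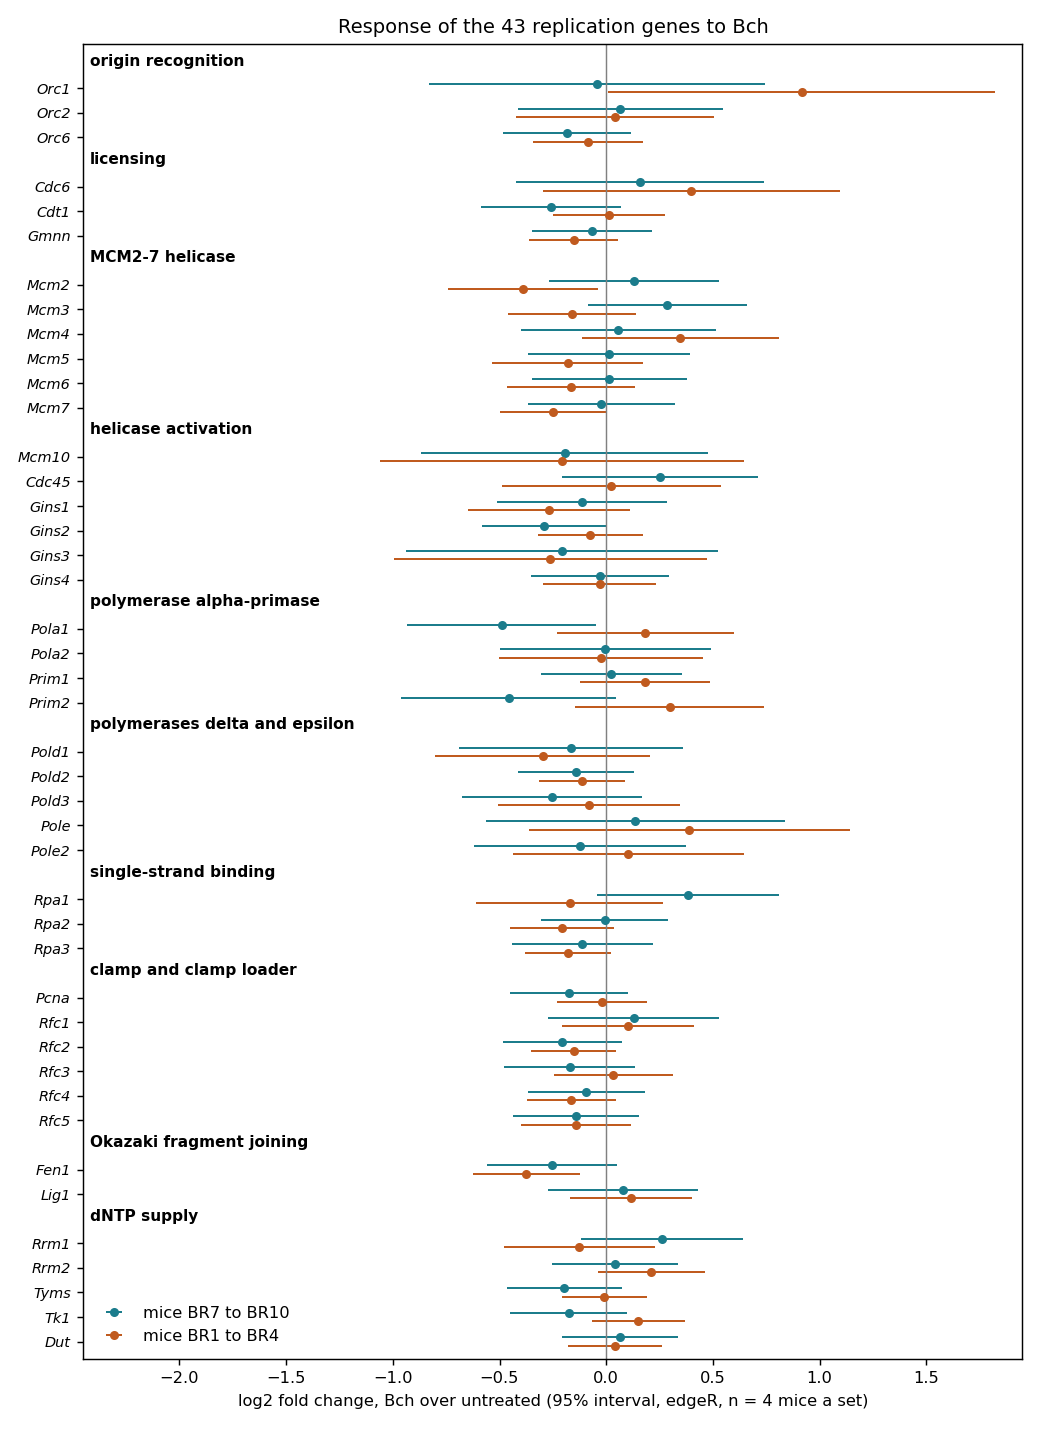
Log2 fold change of Bch over untreated cells (x axis, log2 scale) for each of the 43 genes, grouped by role, in mice BR7 to BR10 (teal) and BR1 to BR4 (orange). Points are edgeR estimates and lines are 95% intervals (n = 4 mice a set). Most intervals cross 0, and those that do not, Pola1 in BR7 to BR10 and Fen1, Mcm2 and Orc1 in BR1 to BR4, had adjusted p-values of 0.999, 0.318, 0.587 and 0.638.

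The members' median lay slightly below that of all genes. Their median log2 fold change was −0.069 in BR7 to BR10, with 27 lower and 16 higher, and −0.075 in BR1 to BR4, with 26 lower and 17 higher. All genes tested had medians of −0.0016 and 0.0011, with 50.3% and 49.8% lower. Over all 8 mice, 29 members were lower and 14 higher, with a median of −0.078, where 48.7% of all genes were lower and their median was 0.0049. The members' median in BR1 to BR4 was 0.012 without BR2, so its sign there rests on that mouse. Without BR7 the median in BR7 to BR10 was −0.12. Their summed level was 3693 ± 282 CPM (SD, n = 4) untreated and 3467 ± 181 CPM with Bch in BR7 to BR10. The sums in BR1 to BR4 were 3499 ± 229.9 CPM and 3342 ± 307 CPM. Within each mouse the sum was lower with Bch. It went from 3336, 3607, 3862 and 3968 CPM to 3230, 3434, 3550 and 3652 CPM in BR7, BR8, BR9 and BR10. In BR1, BR2, BR3 and BR4 it went from 3821, 3441, 3458 and 3275 CPM to 3794, 3110, 3212 and 3252 CPM. Genes with high counts weigh most in such a sum, and its change was not tested.

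Mice of 1 set differed in the direction of many members. Relative to all genes, the median log2 ratio of the members was −0.024, −0.031, −0.050 and −0.17 in BR7, BR8, BR9 and BR10, and −0.031, −0.15, −0.14 and 0.045 in BR1, BR2, BR3 and BR4. In these 8 mice, 23, 25, 25, 29, 22, 26, 25 and 19 of the 43 members were lower with Bch. BR10 stood lowest, with 29 members lower, and BR4 was the mouse in which most members, 24, were higher. From TR1 and TR2 alone the median was −0.21 and −0.0030 in BR2, 0.016 and 0.0081 in BR1 and −0.054 and 0.0057 in BR7, so the sign in BR1 and BR7 depended on which counts were used. Other lists stood apart from all genes both in mice with low member medians and in mice with member medians near 0. Relative to all genes, BR10 had medians of 0.93 for the goblet, 0.70 for the colonocyte, 0.45 for the enteroendocrine, −0.37 for the stem cell and −0.32 for the mitotic genes. For the same lists in that order, they were 0.34, −0.55, 0.61, −0.088 and −0.19 in BR2 and −0.36, −0.23, 0.55, −0.11 and −0.31 in BR3. In the same order they were 0.31, 0.30, −0.245, 0.019 and 0.0032 in BR7 and −0.0088, 0.11, −0.32, 0.36 and −0.049 in BR8. In BR9 they were −0.057, −0.30, −0.50, −0.022 and 0.036. They were −0.17, 0.065, −0.068, −0.19 and −0.016 in BR1 and −0.059, 0.090, −0.019, 0.058 and 0.096 in BR4. The part of these cell types in the members' values of each mouse was not tested. The share of UMIs from ribosomal protein genes was 17.1%, 15.9%, 13.9% and 14.4% untreated and 16.2%, 15.5%, 14.1% and 17.3% with Bch in BR7, BR8, BR9 and BR10. It was 14.7%, 13.8%, 13.9% and 17.9% untreated and 16.1%, 17.1%, 17.6% and 17.7% with Bch in BR1, BR2, BR3 and BR4. With mitochondrial and ribosomal protein genes left out of the scaling, the members' median was −0.064 in BR7 to BR10 and −0.071 in BR1 to BR4, near the values above.

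**Figure D2:**
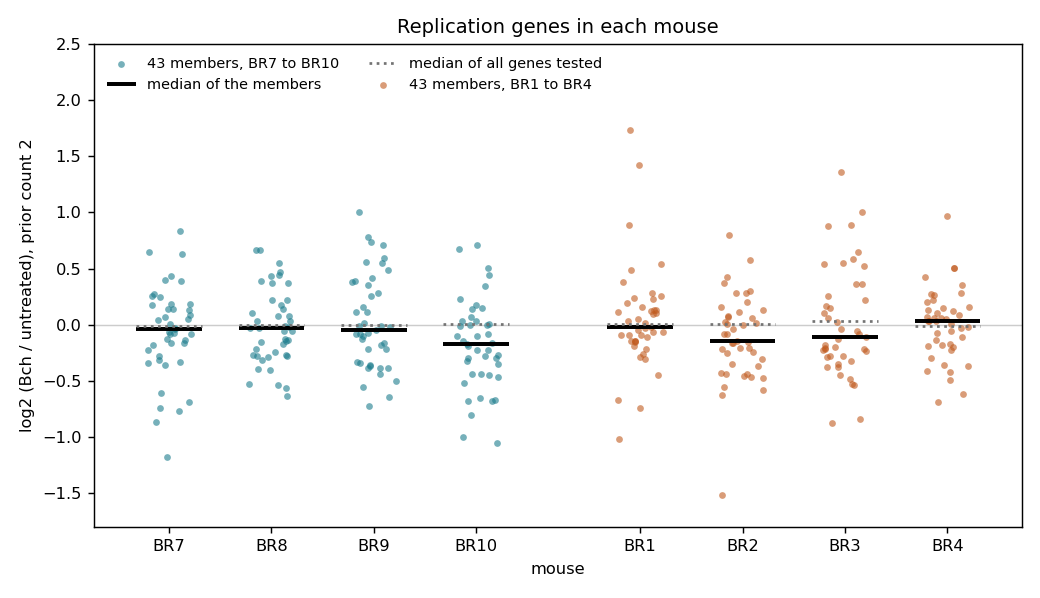
Log2 ratio of Bch to untreated (y axis, log2 scale, prior count 2) in each mouse (x axis), with a point for each of the 43 genes, a black bar for their median and a dotted line for the median of all genes tested. The points spread to both sides of 0 in all 8 mice, and the black bar lies farthest below the dotted line in BR10 (−0.17) and above it in BR4 alone.

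Some members went the same way in every mouse of a set, and Pola1, Prim2 and Tk1 did so in both sets, in opposite directions. In BR7 to BR10, 7 members were lower in 4 of 4 mice (Cdt1, Pola1, Prim2, Pold2, Rfc5, Tyms and Tk1), where 5.48% of 10280 genes were, and Rpa1 and Dut were higher in 4 of 4, where the share of all genes was 6.03%. In BR1 to BR4, 8 were lower in 4 of 4 (Mcm2, Mcm3, Mcm7, Gmnn, Gins1, Rfc2, Rpa2 and Fen1), where 6.84% of all genes were. Orc1, Pola1, Prim2 and Tk1 were higher in 4 of 4 there, where 8.35% of all genes were. The members were counted more deeply than most genes, with a median level of 64.8 CPM against 19.9 CPM, and the part of depth in these shares was not tested. No member was lower or higher in all 8 mice, where the shares of all genes were 0.409% and 0.564%. Below, full separation of treated from untreated samples within a set is given for single members. The share of all genes that separate in this way was not counted.

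Origin recognition was represented by Orc1, Orc2 and Orc6. Orc1, the ATPase subunit that engages Cdc6, was the member with the highest fold change in BR1 to BR4 and over all 8 mice. In BR1, BR2, BR3 and BR4 it was at 4.10, 3.27, 3.49 and 3.55 CPM untreated and 8.42, 6.43, 8.00 and 5.44 CPM with Bch. The untreated and treated ranges did not overlap, and the log2 fold change was 0.92 (95% interval 0.011 to 1.82, adjusted p = 0.638, edgeR). These are low counts, of 1 to 23 UMIs a sample in TR1, and 3 samples lay under their floors, BR2 untreated (3.27 CPM, floor 4.37 CPM), BR3 untreated (3.49 and 11.2 CPM) and BR7 with Bch (3.14 and 5.92 CPM). Orc1 did not pass the filter when TR1 or TR2 was fitted alone. In BR7, BR8, BR9 and BR10 the levels were 8.33, 8.28, 5.07 and 6.95 CPM untreated and 3.14, 11.0, 6.26 and 6.43 CPM with Bch, with BR7 lower and BR8 higher with Bch and a log2 fold change of −0.043 (−0.83 to 0.74). Orc2, which lay under the floor in BR3 untreated at 8.73 CPM, and Orc6, subunits of the same complex, had log2 fold changes of 0.066 (−0.41 to 0.55) and −0.18 (−0.49 to 0.12) in BR7 to BR10 and of 0.041 (−0.42 to 0.51) and −0.085 (−0.35 to 0.17) in BR1 to BR4. Here and below, the parentheses after a fold change hold its 95% interval.

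Of the licensing genes, Cdt1, which brings MCM2-7 to the origin, was lower in 4 of 4 mice of BR7 to BR10. Its levels were 67.9, 71.9, 85.2 and 94.9 CPM untreated and 60.7, 68.9, 79.2 and 59.2 CPM with Bch in BR7, BR8, BR9 and BR10, and the log2 fold change was −0.26 (−0.59 to 0.070) (adjusted p = 0.999, edgeR). Much of this lay in BR10, whose log2 ratio was −0.67 against −0.16 to −0.061 in the others, and without BR10 the fold change was −0.096. Cdt1 in BR1 to BR4 was at 92.6, 88.9, 103 and 77.2 CPM untreated and 101, 88.9, 79.0 and 89.1 CPM with Bch, higher in 2 mice and lower in 2, with 0.013 (−0.25 to 0.27). Cdc6, the ATPase that completes the loading complex, was at 7.69, 9.55, 14.2 and 22.4 CPM untreated and 10.5, 13.6, 18.8 and 16.3 CPM with Bch in BR7 to BR10. It was higher with Bch in BR7, BR8 and BR9 and lower in BR10, with 0.16 (−0.42 to 0.74), or 0.058 without BR8 and 0.46 without BR10. The levels of Cdc6 in BR1 to BR4 were 6.39, 10.5, 14.0 and 15.7 CPM untreated and 23.4, 14.4, 12.0 and 9.90 CPM with Bch. BR1 alone gave a log2 ratio of 1.73, and the fold change of 0.40 (−0.30 to 1.09) became −0.14 without it. Gmnn encodes geminin, the inhibitor of Cdt1, and was at 175, 165, 166 and 166 CPM untreated and 169, 138, 154 and 145 CPM with Bch in BR1, BR2, BR3 and BR4. Each of these mice was lower with Bch, at log2 ratios of −0.048, −0.26, −0.11 and −0.19, and the ranges overlapped only between the highest treated and the untreated samples, with −0.15 (−0.36 to 0.055) (adjusted p = 0.796, edgeR). Gmnn in BR7 to BR10 was at 189, 167, 236 and 192 CPM untreated and 149, 170.5, 184 and 244 CPM with Bch, with −0.069 (−0.35 to 0.21).

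The 6 genes of the MCM2-7 helicase went both ways with Bch among the mice of BR7 to BR10 and had medians below all genes in each mouse of BR1 to BR4. Untreated cells of BR1 to BR4 held a summed level of 368 ± 43.1 CPM (SD, n = 4), and untreated cells of BR7 to BR10 299 ± 37.5 CPM. With Bch the sums were 324 ± 17.4 and 312 ± 62.8 CPM. The median of the 6 genes relative to all genes was −0.26, 0.30, 0.56 and −0.33 in BR7, BR8, BR9 and BR10, so the mice of 1 set lay on both sides of 0. In BR1, BR2, BR3 and BR4 it was −0.22, −0.012, −0.036 and −0.28. The summed level in BR2 was 334 CPM untreated and 340 CPM with Bch, while it was lower with Bch in BR1, BR3 and BR4.

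Mcm2 was at 49.3, 43.2, 75.1 and 44.2 CPM untreated and 45.7, 38.6, 40.5 and 31.2 CPM with Bch in BR1, BR2, BR3 and BR4. It was lower with Bch in 4 of 4 mice, most in BR3, whose untreated sample was the highest of the 16, and the log2 fold change was −0.39 (95% interval −0.74 to −0.039, adjusted p = 0.587, edgeR). TR1 alone gave −0.56 and TR2 alone −0.18, and the value without BR3 was −0.25. In BR7, BR8, BR9 and BR10 Mcm2 was at 33.9, 36.9, 26.9 and 47.2 CPM untreated and 32.4, 48.5, 38.0 and 38.2 CPM with Bch, higher in BR8 and BR9 and lower in BR7 and BR10, with 0.13 (−0.27 to 0.53), a value that was 0.0063 without BR9 and 0.32 without BR10. Mcm7 was lower with Bch in 4 of 4 mice of BR1 to BR4, at 95.8, 93.5, 101 and 112 CPM untreated and 78.2, 88.1, 86.5 and 86.1 CPM with Bch. All 4 treated samples lay below all 4 untreated ones, and the log2 fold change was −0.25 (−0.50 to 0.0022) (adjusted p = 0.655, edgeR). The levels of Mcm7 in BR7 to BR10 were 68.5, 62.4, 81.1 and 87.1 CPM untreated and 53.3, 99.4, 80.5 and 63.4 CPM with Bch, with BR8 higher and the other mice lower, and −0.023 (−0.37 to 0.32). Of the 3′-end sequence of Mcm7, 32.8% is shared with the gene Gm5487, which held at most 7 UMIs in a sample. Mcm7 also overlaps exons of Cops6 and Ap4m1 on the opposite strand, which held 15341 and 357 UMIs in all against 2797 for Mcm7, so its reads may not be separated from theirs.

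Mcm3 had levels of 75.7, 67.4, 43.6 and 60.4 CPM untreated and 68.5, 57.9, 42.5 and 53.4 CPM with Bch in BR1, BR2, BR3 and BR4, lower with Bch in each at log2 ratios of −0.14, −0.22, −0.038 and −0.17, and a fold change of −0.16 (−0.46 to 0.14). Mcm3 in BR7 to BR10 was at 50.6, 54.7, 32.4 and 56.8 CPM untreated and 55.4, 64.0, 66.2 and 49.7 CPM with Bch. BR9 differed most there, with a log2 ratio of 1.01, and the fold change was 0.29 (−0.084 to 0.66), or 0.046 without BR9. Mcm4, Mcm5 and Mcm6 were higher in some mice and lower in others of both sets. Mcm4 was at 26.3, 28.0, 23.8 and 33.6 CPM untreated and 23.0, 32.8, 41.6 and 21.0 CPM with Bch in BR7 to BR10, with 0.057 (−0.40 to 0.51). Mcm4 in BR1 to BR4 was at 33.3, 22.9, 15.7 and 19.8 CPM untreated and 30.1, 24.2, 23.5 and 39.6 CPM with Bch, higher in 3 of 4 mice, with 0.35 (−0.12 to 0.81). This value was 0.085 without BR4, 0.047 from TR1 alone and 0.67 from TR2 alone. Mcm5 was at 64.7, 54.1, 43.1 and 51.7 CPM untreated and 39.7, 70.3, 64.0 and 40.3 CPM with Bch in BR7 to BR10, where BR7 and BR10 were lower and BR8 and BR9 higher, with 0.011 (−0.37 to 0.39). Its levels in BR1 to BR4 were 73.0, 42.5, 33.2 and 65.001 CPM untreated and 43.3, 52.6, 42.99 and 50.5 CPM with Bch, with −0.18 (−0.53 to 0.17). Mcm6 was at 81.3, 58.6, 40.6 and 52.6 CPM untreated and 48.1, 64.7, 59.9 and 52.7 CPM with Bch in BR7 to BR10, with 0.015 (−0.35 to 0.38). Mcm6 in BR1 to BR4 was at 94.4, 64.7, 62.8 and 82.8 CPM untreated and 58.9, 79.1, 64.0 and 70.8 CPM with Bch, with −0.17 (−0.47 to 0.14). The log2 ratios of BR1 were −0.74 for Mcm5 and −0.67 for Mcm6, and without this mouse the fold changes were 0.047 and 0.027. The untreated sample of BR1 came from 13114 sorted cells and its Bch sample from 3504, where the other mice had 2361 to 3000 in each, and the part of this in the values of BR1 was not tested. Among the 5 subunits with a promoter window, Mcm3, Mcm5, Mcm6 and Mcm7 held E2F letters and Mcm2 held none.

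**Figure D3:**
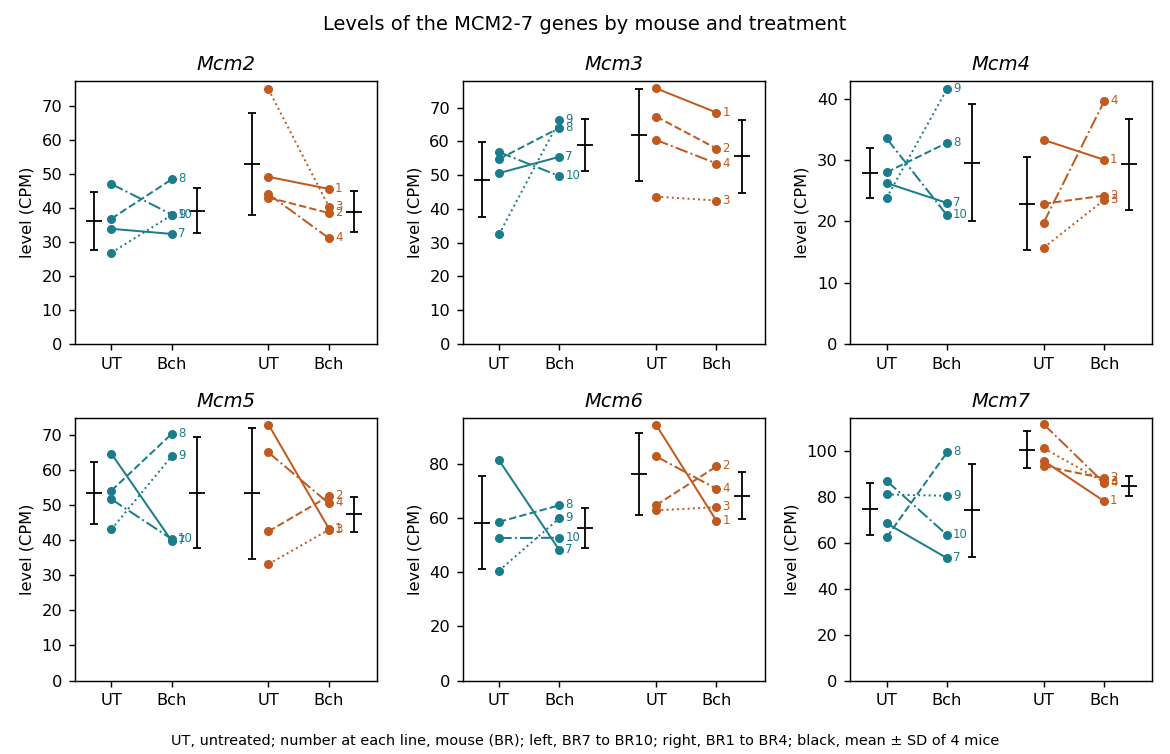
Level in CPM (y axes, from 0) of the 6 MCM2-7 genes in untreated (UT) and Bch-treated cells, with a line for each mouse, BR7 to BR10 in teal and BR1 to BR4 in orange, and black marks for the mean ± SD of 4 mice. Mcm2, Mcm3 and Mcm7 are lower with Bch in each mouse of BR1 to BR4, and the lines of BR7 to BR10 cross.

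Helicase activation was represented by Cdc45, Mcm10 and the GINS subunits Gins1 to Gins4. Gins2 had the lowest p of these in BR7 to BR10, at 128, 119.7, 142 and 124 CPM untreated and 83.7, 99.2, 109 and 127 CPM with Bch. It was lower in BR7, BR8 and BR9 and nearly level in BR10, and the log2 fold change was −0.29 (95% interval −0.58 to 0.0029, adjusted p = 0.999, edgeR). Gins2 in BR1 to BR4 was at 112, 128, 99.5 and 118 CPM untreated and 121, 94.6, 119 and 108 CPM with Bch, with −0.075 (−0.32 to 0.17). Gins1 was lower in 4 of 4 mice of BR1 to BR4, at log2 ratios of −0.44, −0.038, −0.35 and −0.20, with −0.27 (−0.65 to 0.11), and in 3 of 4 of BR7 to BR10, with −0.11 (−0.51 to 0.29). Gins4 was the steadiest of the 43 genes, at 64.0 to 85.5 CPM over the 16 samples, and its fold changes were −0.028 (−0.35 to 0.29) and −0.030 (−0.29 to 0.24). For Cdc45, which joins MCM2-7 and GINS in the active helicase, they were 0.25 (−0.21 to 0.71) and 0.024 (−0.49 to 0.54). Gins3 and Mcm10 were counted at 3.03 to 14.0 and 2.499 to 16.6 CPM, and the interval of Mcm10 in BR1 to BR4, −1.06 to 0.64, reached past a 2-fold lower level.

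Of the 4 subunits of DNA polymerase alpha-primase, which starts each new strand, 2 went in opposite directions in the 2 sets. Pola1, the catalytic subunit, was at 33.3, 35.01, 31.9 and 24.8 CPM in untreated cells of BR7, BR8, BR9 and BR10 and at 17.8, 23.9, 24.2 and 21.0 CPM with Bch. All 4 treated samples lay below all 4 untreated ones, and the log2 fold change was −0.49 (95% interval −0.93 to −0.046, adjusted p = 0.999, edgeR). In BR1, BR2, BR3 and BR4 Pola1 was at 24.6, 27.5, 22.7 and 33.5 CPM untreated and at 27.1, 30.3, 33.0 and 35.1 CPM with Bch. Here each mouse was higher with Bch, the ranges overlapped, and the fold change was 0.18 (−0.23 to 0.60). Prim2, the large subunit of primase, was at 23.1, 21.0, 22.8 and 28.7 CPM untreated and 18.8, 17.1, 21.5 and 13.3 CPM with Bch in BR7, BR8, BR9 and BR10. The mice were lower with Bch at log2 ratios of −0.28, −0.28, −0.084 and −1.06, most in BR10, with a fold change of −0.46 (−0.96 to 0.048). Prim2 in BR1 to BR4 was at 26.5, 19.0, 24.4 and 23.4 CPM untreated and 32.5, 28.7, 25.5 and 26.2 CPM with Bch, higher in 4 of 4 mice, with 0.30 (−0.14 to 0.74). The other two subunits did not share this pattern. Pola2 had fold changes of −0.0045 (−0.50 to 0.49) and −0.024 (−0.50 to 0.46), and Prim1, the catalytic subunit of primase, of 0.025 (−0.31 to 0.36) and 0.18 (−0.12 to 0.49).

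The difference between the sets was tested itself, as the response of BR7 to BR10 minus that of BR1 to BR4. It was −0.68 for Pola1 (95% interval −1.26 to −0.090) and −0.76 for Prim2 (−1.41 to −0.10), the 2 members with an unadjusted p under 0.05, where 1.97% of all genes were lower and 2.41% higher at that p. Without BR10 the difference for Prim2 was −0.50. Neither passed, with an adjusted p = 0.9999 for each in edgeR's test over 10280 genes, and 0 of 43 members did, where 0.0% of all genes passed. DESeq2 gave 0 members past the threshold and 0 at an unadjusted p under 0.05. Tk1 was the other member with every mouse of one set opposite to every mouse of the other, and these 3 of 43 stand beside 0.827% of 10280 genes. Over all members the median difference was −0.0019, with 22 lower and 21 higher. The lowest difference was that of Orc1, at −0.97 (−2.15 to 0.22), and the highest were those of Rpa1, at 0.55 (−0.051 to 1.15), and Mcm2, at 0.52 (−0.0093 to 1.05). Leaving out 1 mouse gave 0.35 (without BR4) to 0.75 (without BR3) for Rpa1 and 0.39 (without BR3) to 0.71 (without BR10) for Mcm2, so their order is not settled. Pola1 is the only one of the 43 genes on the X chromosome.

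Polymerases delta and epsilon, which extend the primers, were counted through Pold1, Pold2, Pold3, Pole and Pole2. Pold2, a regulatory subunit of polymerase delta, was lower in 4 of 4 mice of BR7 to BR10, at log2 ratios of −0.079, −0.029, −0.13 and −0.32. Its fold changes were −0.14 (−0.41 to 0.13) in BR7 to BR10 and −0.11 (−0.31 to 0.088) in BR1 to BR4. The catalytic subunit Pold1 had −0.17 (−0.69 to 0.36) and −0.30 (−0.80 to 0.21), and Pold3 had −0.25 (−0.67 to 0.17) and −0.080 (−0.51 to 0.35). The catalytic subunit of polymerase epsilon, Pole, was counted at only 3.55 to 19.2 CPM and had 0.14 (−0.57 to 0.84) and 0.39 (−0.36 to 1.14). Pole2, its second subunit, shares 50.3% of its 3′-end sequence with Gm49384, so its counts are uncertain, and it had −0.12 (−0.62 to 0.37) and 0.10 (−0.44 to 0.64).

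RPA binds the single strand that the helicase exposes. Rpa1, the large subunit, was at 23.7, 24.2, 23.8 and 28.1 CPM in untreated BR7, BR8, BR9 and BR10 and at 31.4, 35.9, 32.2 and 31.3 CPM with Bch. All 4 treated samples lay above all 4 untreated ones, and the log2 fold change of 0.38 was the highest of the members in this set (95% interval −0.042 to 0.81, adjusted p = 0.999, edgeR). Rpa1 in BR1 to BR4 was at 23.3, 27.5, 27.9 and 42.1 CPM untreated and 22.8, 23.1, 41.0 and 25.7 CPM with Bch, higher with Bch in BR3 only, with −0.17 (−0.61 to 0.27). Rpa2 was lower in 4 of 4 mice of BR1 to BR4, at log2 ratios of −0.31, −0.21, −0.18 and −0.11, with −0.21 (−0.45 to 0.036), and had −0.0074 (−0.31 to 0.29) in BR7 to BR10. Rpa3, the small subunit, was at 241, 258, 265 and 215 CPM untreated and 218, 191, 226 and 229 CPM with Bch in BR1 to BR4, lower in 3 of 4, with −0.18 (−0.38 to 0.021). Rpa3 in BR7 to BR10 was at 323, 306, 361 and 228 CPM untreated and 334, 206, 230.3 and 372 CPM with Bch. BR10 was higher and BR8 and BR9 were lower there by more than 0.5 on the log2 scale, with a fold change of −0.11 (−0.44 to 0.22).

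Pcna, the sliding clamp that holds polymerases on DNA, was at 167, 179, 183 and 170.5 CPM untreated and 134, 154, 157 and 174 CPM with Bch in BR7, BR8, BR9 and BR10. BR7, BR8 and BR9 were lower with Bch, and the log2 fold change was −0.17 (−0.45 to 0.10) (adjusted p = 0.999, edgeR). Pcna in BR1 to BR4 was at 168, 143, 154 and 149 CPM untreated and 173, 135, 145 and 152 CPM with Bch, and its interval was among the narrowest, −0.019 (−0.23 to 0.19). Over all 8 mice the fold change was −0.10 (−0.26 to 0.067). Of the clamp loader, Rfc2 was lower in 7 of 8 mice. Its levels were 177, 178, 208 and 222 CPM untreated and 187, 175, 165 and 155 CPM with Bch in BR7 to BR10 and 216, 185, 204 and 171 CPM untreated and 194, 165, 175 and 162 CPM with Bch in BR1 to BR4, and the log2 fold change over all 8 mice was −0.18 (95% interval −0.34 to −0.013, adjusted p = 0.903, edgeR). The other loader subunits, Rfc1, Rfc3, Rfc4 and Rfc5, had 0.12, −0.068, −0.13 and −0.14 over all 8 mice. Of these, Rfc5 was lower in 4 of 4 mice of BR7 to BR10, at log2 ratios of −0.032, −0.026, −0.015 and −0.47.

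Fen1, the nuclease that trims the flap between Okazaki fragments, had the lowest p of the 43 genes over all 8 mice. In BR1, BR2, BR3 and BR4 it was at 119, 115, 133 and 100.04 CPM untreated and at 113, 74.1, 91.5 and 81.2 CPM with Bch. Each mouse was lower with Bch, least in BR1, the ranges overlapped, and the log2 fold change was −0.37 (95% interval −0.62 to −0.12, adjusted p = 0.318, edgeR). In BR7, BR8, BR9 and BR10 Fen1 was at 88.4, 101, 122 and 155 CPM untreated and at 75.3, 106, 109 and 96.5 CPM with Bch. BR8 was slightly higher and the other mice lower, BR10 most, with −0.25 (−0.56 to 0.049). Over all 8 mice Fen1 was lower in 7 and the fold change was −0.31, or 0.805-fold (95% interval −0.51 to −0.12, adjusted p = 0.801, edgeR). Fen1 overlaps exons of Tmem258 on the opposite strand, which held 26999 UMIs in all against 3483 for Fen1, and the sources used here do not state whether counting used the strand, so the reads of this pair may not be separated. Lig1, the ligase that joins the fragments after Fen1, had log2 fold changes of 0.079 (−0.27 to 0.43) in BR7 to BR10 and 0.11 (−0.17 to 0.40) in BR1 to BR4. The difference between Fen1 and Lig1 was not tested.

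**Figure D4:**
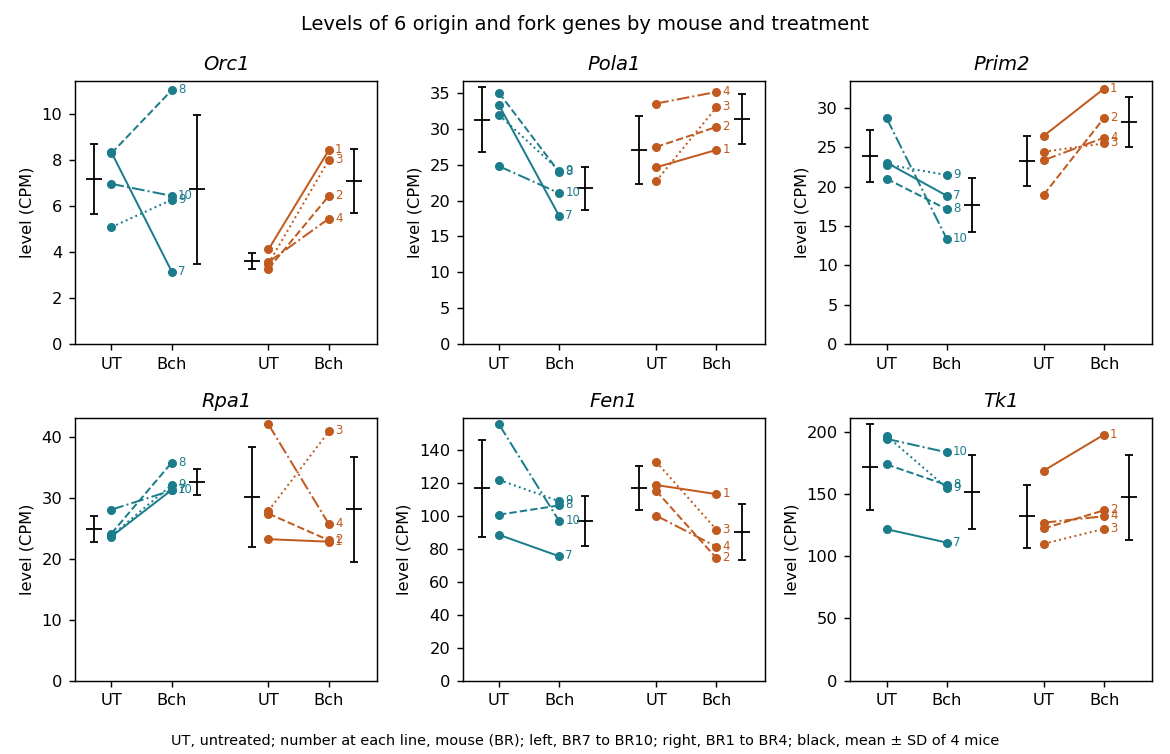
Level in CPM (y axes, from 0) of Orc1, Pola1, Prim2, Rpa1, Fen1 and Tk1 in untreated (UT) and Bch-treated cells, with a line for each mouse, BR7 to BR10 in teal and BR1 to BR4 in orange, and black marks for the mean ± SD of 4 mice. Pola1, Prim2 and Tk1 slope down in each mouse of BR7 to BR10 and up in each of BR1 to BR4, and Fen1 slopes down in 7 of 8 mice.

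Of the genes of dNTP supply, Tk1, the thymidine kinase of the salvage route, was lower in 4 of 4 mice of BR7 to BR10, at 122, 174, 197 and 194 CPM untreated and 111, 157, 155 and 183 CPM with Bch. The log2 ratios were −0.13, −0.14, −0.34 and −0.083 in BR7, BR8, BR9 and BR10, and the fold change was −0.18 (−0.45 to 0.10) (adjusted p = 0.999, edgeR). Tk1 in BR1 to BR4 was at 169, 122, 110.0 and 127 CPM untreated and 198, 137, 122 and 132 CPM with Bch, higher in 4 of 4, with 0.15 (−0.066 to 0.37), and the difference between the sets was −0.33 (−0.67 to 0.0073). Tyms, thymidylate synthase of the de novo route, was also lower in 4 of 4 mice of BR7 to BR10, at 243, 278, 243 and 289 CPM untreated and 237, 211, 229.9 and 240.5 CPM with Bch and with −0.20 (−0.47 to 0.072). Its 4 treated samples lay below the 4 untreated ones. Its levels in BR1 to BR4 were 253, 219, 239 and 221 CPM untreated and 281, 199, 205 and 241 CPM with Bch, with −0.0091 (−0.21 to 0.19). Rrm1 and Rrm2 are the 2 subunits of ribonucleotide reductase, which makes deoxynucleotides from ribonucleotides. Rrm1 was at 43.6, 45.2, 34.98 and 64.4 CPM untreated and 39.7, 72.5, 59.0 and 52.3 CPM with Bch in BR7 to BR10, higher in BR8 and BR9 and lower in BR7 and BR10, with 0.26 (−0.12 to 0.64), a value that was 0.092 without BR9 and 0.50 without BR10. Rrm1 in BR1 to BR4 was at 53.4, 45.8, 52.4 and 38.1 CPM untreated and 49.9, 32.9, 40.0 and 49.0 CPM with Bch, with −0.13 (−0.48 to 0.23), or −0.0039 without BR2 and −0.31 without BR4. Rrm2 was at 85.8, 134, 140.4 and 154 CPM untreated and 135, 119, 133 and 138 CPM with Bch in BR7 to BR10, where BR7 alone was clearly higher with Bch, with 0.040 (−0.26 to 0.34). The levels of Rrm2 in BR1 to BR4 were 129.98, 95.5, 97.8 and 73.1 CPM untreated and 190.0, 96.1, 94.0 and 85.1 CPM with Bch, with BR1 the highest with Bch, and the fold change was 0.21 (−0.038 to 0.46), or 0.067 without BR1. Rrm1 and Rrm2 went in different directions in BR7, BR8, BR9, BR1 and BR2. Dut, which clears dUTP, was higher in 4 of 4 mice of BR7 to BR10 by at most 0.14 on the log2 scale, with 0.065 (−0.21 to 0.34), and had 0.041 (−0.18 to 0.26) in BR1 to BR4.

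Untreated cells of the sets were then compared, BR1 to BR4 minus BR7 to BR10, without a block, as a description of the starting levels. Here 1.64% of 9159 genes passed the threshold and 0 of 42 members tested did, with Orc1 under the filter and a lowest adjusted p of 0.172 among the members (edgeR). DESeq2 gave an adjusted p for 29 members and called 0 of them, with 4 of the 43 at an unadjusted p under 0.05. At an unadjusted p under 0.05, edgeR gave 7 members, and 2 (without BR4) to 6 (without BR10) when 1 mouse was left out. Of the members, 4 of 42 were higher in BR1 to BR4 at that p, where 6.05% of all genes were. They were Mcm7 at 0.43 (0.12 to 0.74), Mcm6 at 0.44 (0.056 to 0.83), Mcm2 at 0.48 (0.054 to 0.91) and Mcm3 at 0.40 (0.0040 to 0.79). The other subunits of the helicase, Mcm4 and Mcm5, had −0.21 (−0.70 to 0.27) and 0.086 (−0.32 to 0.49). Mcm7 in untreated cells was at 95.8, 93.5, 101 and 112 CPM in BR1 to BR4, all above the 68.5, 62.4, 81.1 and 87.1 CPM in BR7 to BR10. The members lower in BR1 to BR4 were Tk1 at −0.35 (−0.66 to −0.041), Rpa3 at −0.30 (−0.57 to −0.032) and Rrm2 at −0.36 (−0.72 to −0.00054), against 6.66% of all genes. The value of Rrm2 was −0.54 without BR1 and −0.22 without BR4. Mcm7 and Gins4 had no overlap between the untreated sets in the higher direction, and Orc1 and Pole2 in the lower, 2 of 43 members each, where 3.32% and 4.33% of all genes had none. The untreated samples of BR1 to BR4 enter both this comparison and the Bch response of that set, where Mcm2, Mcm3 and Mcm7 were lower with Bch, so the 2 are not independent. The median over the members was −0.050, and 0.066 without BR10. Beside it, the stem cell list had a median of 0.51 (8 of 9 genes higher, 2 past the threshold), the colonocyte list −0.73 (1 past it), the goblet list −0.48 and the enteroendocrine list −1.07. The G1/S regulators had a median of 0.27 (13 of 21 higher, 1 past the threshold), the other replication genes 0.099 and the other genes of nucleotide metabolism 0.18. The part of these cell types in the members' values was not tested.

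The rest of the pathway, genes that act at origins and forks but are not among the 43, were tested in the same fits. Of 38 such genes, 33 were tested in each set and 0 passed, with medians of −0.0094 in BR7 to BR10 (18 lower, 15 higher) and −0.083 in BR1 to BR4 (25 lower, 8 higher). Dbf4, the activating subunit of the Cdc7 kinase that fires origins, had a value above untreated in each mouse of BR7 to BR10 and a log2 fold change of 0.70 (adjusted p = 0.999, edgeR). Timeless, a fork protection gene, was lower in 4 of 4 there, with −0.57. In BR1 to BR4 the lowest p-values belonged to Donson, at −0.82, and the histone chaperone gene Asf1b, at −0.30. Of 23 regulators of the G1/S transition, 22 and 21 were tested and 0 passed, with medians of −0.043 and −0.033. The regulators with the lowest p in BR7 to BR10 were Cdkn1a, which encodes the p21 inhibitor of cyclin-dependent kinases, at 0.48, and Fbxo5, an inhibitor of the anaphase-promoting complex, at −0.48. Those in BR1 to BR4 were Tfdp2, an E2F partner, at −0.33 and Rb1 at 0.58. Of 20 other genes of nucleotide metabolism, 18 were tested in each set and 0 passed, with medians of −0.047 and −0.090. Samhd1, a dNTP hydrolase, had 0.54 and Atic, of purine synthesis, 0.33 in BR7 to BR10, and Impdh2 had 0.28 and Gart −0.32 in BR1 to BR4. Of 24 mitotic genes all were tested and 0 passed, with medians of −0.071 and −0.069, close to those of the members. Among them Ndc80 had −0.68 and Spc25 −0.37 in BR7 to BR10, and Ube2c had 0.25 and Aurka −0.20 in BR1 to BR4.

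Markers of cell types were set beside these values. Lgr5, the gene behind the sort, had a log2 fold change of 0.49 in BR7 to BR10 (higher in 4 of 4 mice) and of −0.66 in BR1 to BR4 (lower in 3 of 4), with adjusted p-values of 0.999 and 0.357 (edgeR). Ascl2, a transcription factor of the same stem cell list, was lower in 4 of 4 mice of BR7 to BR10, with −0.32 (adjusted p = 0.999, edgeR). The stem cell list had medians of 0.034 and −0.095, the colonocyte list 0.098 and −0.19, the goblet list 0.22 and 0.010 and the enteroendocrine list −0.065 and 0.20 in the 2 sets, with 0 genes past the threshold. Single markers lay farther from 0 than these medians. In BR7 to BR10 the enteroendocrine hormone gene Gcg was lower in 4 of 4 mice, with −0.81, and the goblet gene Fcgbp higher in 4 of 4, with 0.77, and in BR1 to BR4 the goblet gene Spink4 and the colonocyte gene Car1 were lower in 4 of 4, with −0.38 and −0.41 (adjusted p = 0.183, 0.541, 0.117 and 0.194, edgeR). Other markers of these lists went the other way. The enteroendocrine gene Chgb was higher in 3 of 4 mice of BR7 to BR10, with 0.43 (adjusted p = 0.999, edgeR). The goblet gene Muc2 was higher in 4 of 4 mice of BR1 to BR4, with 0.21 (adjusted p = 0.842, edgeR). Muc2 was also higher in 3 of 4 of BR7 to BR10, with 0.45, and the colonocyte gene Krt20 lower in 3 of 4 of BR1 to BR4, with −0.76. The tuft, fibroblast and immune lists had 0 genes above the filter, and the epithelial list had medians of 0.054 and 0.0094. The summed goblet markers ranged from 3471 to 9004 CPM in untreated and from 5175 to 13955 CPM in Bch-treated cells of BR7 to BR10, and the members summed to 3230 to 3968 CPM over the same 8 samples. Whether the makeup of the sorted cells plays a part in the members' values was not tested.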

How the data were processed

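Lgr5-EGFP + cells of 8 mice, untreated or treated with Bch, were sequenced as 32 libraries. The authors primed cDNA with oligo-dT carrying UMIs, ran the Drop-seq pipeline against GRCm38 and deposited UMI counts per gene, not normalized. Strand use and treatment of reads that match several genes are not given in the sources used here. Groups came from the deposited labels. TR1 and TR2 were summed. The sum may count a molecule more than once, so limits were taken from TR1. Of 23517 genes, 1520 were blank in TR2 and held at most 4 UMIs in TR1, and were read as 0.

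Counts were tested in R 4.3.3 with edgeR 4.0.16 (filterByExpr, TMM, robust quasi-likelihood fit, the mouse as a block, threshold of 0.05 after Benjamini-Hochberg adjustment over all genes tested). Ratios per mouse used a prior count of 2. Alternatives were DESeq2 1.42.0, its size factors, no filter, TR1 or TR2 alone, scaling without 30 mitochondrial and 88 ribosomal protein genes, no block, leaving out each mouse, CPM without TMM factors and a prior count of 0.5. Steps were tested on simulated data. Pairs come from the labels, since the same mouse gave both treatments. The deviations of the paired samples from their group means correlated at 0.0710, 0.151, 0.0031 and −0.0203 in BR7, BR8, BR9 and BR10 and at 0.244, 0.0331, 0.0615 and 0.0837 in BR1, BR2, BR3 and BR4. The highest correlation of each untreated sample with a treated sample of another mouse of its set was also taken. It was 0.0624, −0.0176, 0.0741 and 0.194 in the first of these sets and −0.0920, 0.0081, 0.0364 and 0.0543 in the second. In BR9 and BR10 it was above the correlation within the mouse, so these values did not bear out those pairs. In the fits with a block, p-values measure the spread of the Bch response among these 4 or 8 mice. Between the untreated sets they measure the spread between mice. In each edgeR fit the spread of a gene is drawn toward the trend over all genes tested. Sums held 557512 to 4050342 UMIs, from 2361 to 13114 sorted cells, 3000 in most. Positions came from GENCODE M21 on GRCm38 and promoters from RefSeq (GRCm38.p6). Of the 43 genes, 13 overlap an exon on the opposite strand, and 6 share 65-base stretches of their last 300 bases with other genes.

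The 43 genes and the lists beside them were chosen with earlier results of these data known. Values per mouse were given for the MCM2-7 genes, Pcna, Cdc6, Cdt1, Gmnn, Rrm1, Rrm2, Tyms and Tk1, and for the 2 members per direction with the smallest p in each fit (3 for the untreated sets). From the other lists of the pathway, the 2 genes with the smallest p in each set were named. Orc6, Gins1, Pold2 and other members outside this rule were named after their values were seen.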

Additional observations from a re-analysis of the deposited data

Results flagged for a closer look

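Among 22 named members, 132 groups of 4 mice were checked for a sample far from the other 3, and 8 stood apart, where chance alone gives about 1 in 20. BR10 gave a log2 ratio of −0.44 for Cdc6, against 0.38 to 0.47 in BR7, BR8 and BR9, and of −0.67 for Cdt1, against −0.16 to −0.06. BR7 gave a log2 ratio of 0.65 for Rrm2, against −0.17 to −0.07 in the other mice of its set. BR3 gave 0.52 for Pola1, against 0.07 to 0.14 in BR1, BR2 and BR4. In levels, untreated BR1 held 175 CPM of Gmnn against 165 to 166, untreated BR10 held 28.1 CPM of Rpa1 against 23.7 to 24.2, BR3 with Bch held 41.0 CPM of Rpa1 against 22.8 to 25.7, and BR1 with Bch held 190.0 CPM of Rrm2 against 85.1 to 96.1.

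Pola1, Prim2 and Tk1 were lower with Bch in every mouse of BR7 to BR10 and higher in every mouse of BR1 to BR4. The differences between the responses were −0.68, −0.76 and −0.33 on the log2 scale, and none passed in edgeR's interaction test, with an adjusted p = 0.9999 for each. Sex, source and kit cannot be told apart between the sets.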

How the results depend on the processing

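No member passed the threshold under an alternative that gave it an adjusted p. DESeq2 gave none for 38 of 43 members in BR1 to BR4 and for 14 between the untreated sets. All alternatives gave 0 to 6 members at an unadjusted p under 0.05 in BR7 to BR10, where 1 was reported. In the difference between the sets and over all 8 mice, 2 reported each, they were 6 and 5 without BR10. Of 563 alternative values for named members 530 kept their direction. The 288 alternatives of members named for their smallest p all kept it, apart from Orc1, for which TR1 or TR2 alone gave no value in BR1 to BR4 because it did not pass the filter. These members were picked by p in the same samples, so their kept direction is no independent check. Of 47 results for named members, 26 moved by over 1.5 times when a mouse was left out. The genes called in BR1 to BR4, 2 as reported, were 15 with DESeq2, 88 without the filter, 9 from TR1 alone, 0 with no replicate block, and 0 to 20 when each mouse was left out. Leaving out each mouse gave 0 to 4 genes in BR7 to BR10 and 74 to 210 between the untreated sets, 234 without the filter. Without the filter, the difference between the sets called 1 gene and all 8 mice 15, and TR1 alone 1 over all 8. The members' median of the difference was −0.16 to 0.037 when each mouse was left out, the lowest without BR2. The paired fit without the replicate block called 0 genes in BR7 to BR10, in the difference and over all 8 mice and changed no call of a member.

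The other 33 values changed sign. In BR7 to BR10, DESeq2 gave −0.025 for Mcm5 and −0.014 for Mcm6, TR1 alone gave −0.060 for Mcm5 and −0.097 for Cdc6, TR2 alone gave −0.016 for Mcm6, 0.0020 for Mcm7 and 0.00090 for Gmnn, and the fit with no replicate block gave −0.015 for Mcm6 and 0.014 for Mcm7. Leaving out each mouse gave −0.22 to 0.34 for Mcm4, −0.19 to 0.20 for Mcm5, −0.17 to 0.23 for Mcm6, −0.26 to 0.15 for Mcm7, −0.21 to 0.027 for Gmnn and −0.12 to 0.12 for Rrm2. In BR1 to BR4, no filter gave 0.0042 for Pcna and 0.014 for Tyms, and TR2 alone 0.0085 and 0.016. Leaving out each mouse there gave −0.35 to 0.047 for Mcm5, −0.33 to 0.027 for Mcm6, −0.14 to 0.82 for Cdc6, −0.058 to 0.11 for Cdt1, −0.040 to 0.0034 for Pcna and −0.067 to 0.051 for Tyms. The cause was not tested. Levels lay under the floor in 3 samples for Orc1, 2 for Mcm10 and 1 each for Orc2 and Pole, and BR3 untreated had the fewest UMIs.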
